A study of Mus musculus with 6 samples.

Results

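The nuclear oxidative phosphorylation (OXPHOS) genes were examined in tissue labelled hippocampus from ageing mice given an androgen. Members were chosen by symbol, from the gene identifiers of the deposited lists: names starting with Nduf, Uqcr, Cox4 to Cox8 or Atp5, and the genes Sdha, Sdhb, Sdhc and Sdhd, with pseudogenes left out. This gave 91 gene identifiers of 32348 in the files, of which 84 had a mean of at least 0.5 FPKM (fragments per kilobase of event and M, mega, mapped fragments) and were among the 11368 genes tested. The 91 comprise 38 complex I genes, 8 complex I assembly factors (Ndufaf), 4 of complex II, 8 of complex III, 16 of complex IV and 17 of complex V. Cox4i1, Cox8a and Atp5g2 have no row in the files used here and were not analysed here, and neither were the subunits encoded in mitochondrial DNA.

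The DHT group comprised 3 libraries from male C57BL/6 mice, 14 months old, injected under the skin every morning for 14 days with dihydrotestosterone (DHT), an androgen that aromatase does not convert to oestrogen. The oil group comprised 3 libraries from mice of the same sex, strain and age given corn oil, the vehicle, on the same schedule. The sample descriptions call the DHT samples the testosterone group, and the labels state no dose. The labels do not tie each library to its own mouse. The p-values below therefore reflect variation among 6 libraries that may be partly technical.

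Oxidative phosphorylation is carried out by protein complexes of the inner mitochondrial membrane. Complexes I and II take electrons from NADH and succinate, complex III passes them to cytochrome c, and complex IV hands them to oxygen. Complexes I, III and IV pump protons, and complex V, the ATP synthase, uses the returning protons to make ATP. Most subunits are encoded in the nucleus and a few in mitochondrial DNA, and neurons depend heavily on this supply of ATP for ion pumping and synaptic transmission. Genes of the system are known to carry binding sites for NRF1, for GABP (NRF2) of the ETS family and for YY1 in their promoters.

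The promoters were therefore searched on both strands, in the 250 bases before and 50 bases after each annotated start (RefSeq, GRCm38.p6). Promoters were held for 74 of the 91 identifiers (79 promoters). The NRF1 motif (GCGCA, any base, then GCGC) stood in 24.1% of the member promoters, against 4.60% of all 32851 promoters. The ETS motif CCGGAAG stood in 21.5% of member promoters and 8.86% of all, and the YY1 motif AAGATGGC in 13.9% of member promoters and 2.75% of all. A match describes letters in this window and is not a bound site. The 150 bases before the start are shown for 4 genes described below: Atp5e and Ndufaf8, which had the smallest p in each direction, and Cox6a1 and Ndufa8, whose upstream bases hold the NRF1 motif. Capitals mark the motifs, and positions count back from the annotated start.
Atp5e, chr2:174464102-174464251, minus strand, ETS motif at -102 to -96: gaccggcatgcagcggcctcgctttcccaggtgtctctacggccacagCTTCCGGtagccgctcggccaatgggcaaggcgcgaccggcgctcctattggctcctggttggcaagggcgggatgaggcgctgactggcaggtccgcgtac
Ndufaf8, chr11:120098784-120098933, plus strand, ETS motif at -8 to -2: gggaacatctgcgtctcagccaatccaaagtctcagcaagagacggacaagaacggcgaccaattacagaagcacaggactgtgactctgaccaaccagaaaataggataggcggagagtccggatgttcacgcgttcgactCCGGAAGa
Cox6a1, chr5:115348959-115349108, minus strand, NRF1 motif at -117 to -108 and ETS motif at -16 to -10: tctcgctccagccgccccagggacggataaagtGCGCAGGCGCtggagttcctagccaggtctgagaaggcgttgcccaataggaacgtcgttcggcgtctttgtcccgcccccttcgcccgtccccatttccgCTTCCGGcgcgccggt
Ndufa8, chr2:36049339-36049488, minus strand, NRF1 motif at -30 to -21: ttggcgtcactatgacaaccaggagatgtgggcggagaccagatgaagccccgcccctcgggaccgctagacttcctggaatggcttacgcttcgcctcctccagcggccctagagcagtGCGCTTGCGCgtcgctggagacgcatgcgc
The ETS motif lies close to the start in Ndufaf8 and Cox6a1 and farther upstream in Atp5e, and in Atp5e and Cox6a1 it is read on the opposite strand. Cox6a1 holds both motifs. Other genes with a promoter held are also described below for small p-values. Of these, Cox6b1, Ndufb7 and Uqcr11 held the ETS motif in their 150 bases. Cox5b, Ndufa10, Ndufc2, Uqcrc1, Atp5g1 and Ndufa1 held none of the motifs there.

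The files give values for exon and splicing events of assembled loci, not for genes. A gene's value in a library was taken as the larger of its summed first-exon and summed last-exon events. Mapped reads were between 143 and 177 M (mega) in DHT samples, against between 154 and 159 M in oil samples. The gene values summed to between 94871 and 96063 FPKM in DHT samples, against between 87148 and 89596 FPKM in oil samples, and the median log2 fold change of all genes tested was 0.07. Choroid plexus markers (5 in the files, 2 of them tested) summed to 1.29, 2.12 and 31.0 FPKM in DHT samples, against 79.9, 13.8 and 3.26 FPKM in oil samples, and oligodendrocyte markers to between 363 and 440 FPKM in DHT samples, against between 307 and 376 FPKM in oil samples. Most of the choroid plexus sum was Ttr in DHT replicate 3 (29.2 FPKM) and oil replicate 1 (76.4 FPKM). The part of these markers in the results below was not tested. The tissue markers went against the label in part. Of 8 hippocampal markers, 4 (Zbtb20, Wfs1, Calb2 and Prox1) passed the filter on low values. Dsp was at 0 in all 6 libraries, Neurod6 and Iyd were each at 0 in 5 of 6, and C1ql2 did not exceed 0.297 FPKM. Of 9 striatal markers in the files, 8 passed, with means over all libraries of 120 FPKM for Penk, 71.0 FPKM for Ppp1r1b and 18.1 FPKM for Rgs9, and Drd1 was at 0 in all. The striatal markers summed to between 185 and 349 FPKM in DHT samples, against between 266 and 297 FPKM in oil samples, and the hippocampal ones to between 12.6 and 34.7 FPKM in DHT samples, against between 17.8 and 34.1 FPKM in oil samples. The name hippocampus is the label's, and which regions the tissue held was not tested.

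OXPHOS transcripts were abundant. The median level of the 84 tested members over all libraries was 12.5 FPKM, against 3.77 FPKM for all genes tested, and 48 members (57.1%) exceeded 10 FPKM, against 19.1% of all genes. By complex, the median level was 27.8 FPKM in complex IV, 19.0 in complex V, 18.4 in complex III, 14.3 in complex II and 11.99 in complex I. The Ndufaf assembly factors, which help build complex I but are not part of the finished enzyme, had a median of only 2.36 FPKM, and none exceeded 10 FPKM. The highest member was Atp5b, the catalytic beta subunit of ATP synthase, with 154, 155 and 144 FPKM in DHT samples, against 144, 131 and 134 FPKM in oil samples. Its partner Atp5a1, the alpha subunit, had 97.0, 102 and 85.2 FPKM in DHT samples, against 95.7, 83.3 and 90.4 FPKM in oil samples. Both genes overlapped between the groups.

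Added over all 91 members, the summed level was 1544, 1596 and 1556 FPKM in DHT samples, against 1469, 1420 and 1420 FPKM in oil samples. Every DHT library was above every oil library, as it was for the sum over all genes. Taken as a share of all gene values, the members made up between 1.63% and 1.66% in DHT samples, against between 1.63% and 1.64% in oil samples, so the groups overlapped. In bulk tissue, a change in the number of cells of a type and a change of RNA per cell cannot be told apart.

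No member passed the test. With limma's moderated test and Benjamini-Hochberg adjustment over the 11368 genes, 0 of 84 members had an adjusted p under 0.05, against 2 of all genes (0.0176%). The adjusted p of the members began at 0.652. The log2 fold change, DHT over oil on the log2(FPKM + 0.5) scale, was above 0 in 56 members (66.7%) and below 0 in 28. Its median over the members was 0.09, and 63.6% of all genes tested were above 0.

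At an unadjusted p under 0.05, 12 of 84 members (14.3%) were higher in DHT samples, against a background of 5.79% of all genes. Another 3 members (3.57%) were lower, against a background of 1.55%. Both directions together made 15 members (17.9%), against 7.34% of all genes. When each library was centred on its own median, 6 members were higher, against 3.16% of all genes, and 5 were lower, against 2.87%. Without oil replicate 2 the count in both directions was 7 members (8.33%, with 6.23% of all genes). Without oil replicate 3 it was 8 (9.52%, with 6.47%) and without DHT replicate 2 it was 9 (10.7%, with 6.29%). Without DHT replicate 1 it was 13 (15.5%, with 6.09%). Without DHT replicate 3 it was 12 (14.3%, with 6.74%) and without oil replicate 1 it was 12 (14.3%, with 7.44%). Without both DHT replicate 2 and oil replicate 3, 5 members were left (5.95%, with 5.80% of all genes). This setting was added after the data were seen. The member share there lay close to the background, in a fit with fewer libraries in both groups. In 16 members (19.0%) every DHT library was above every oil library, against 12% of all genes, and in 6 members (7.14%) every DHT library was below, against 3.15%.

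**Figure D1:**
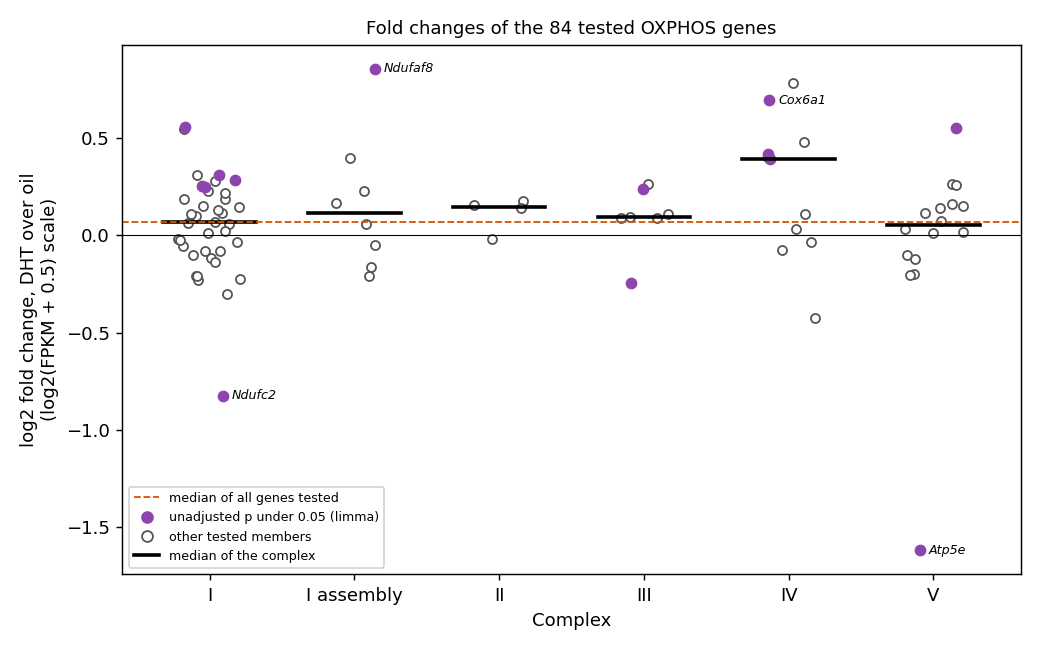
The log2 fold change of DHT over oil, on the log2(FPKM + 0.5) scale, is plotted for each of the 84 tested members by complex, with filled points for an unadjusted limma p under 0.05, a bar at each complex's median and a dashed line at the median of all genes (0.07). Most points lie within 0.5 of 0, complex IV has the highest median (0.39, the value of Cox5b), and Atp5e stands lowest at -1.62.

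Complex I is the entry point for electrons from NADH and the largest of the complexes. All 38 of its genes in the files were tested. The fold change was above 0 in 23 (60.5%, against 63.6% of all genes) and below 0 in 15. The median log2 fold change was 0.07, equal to that of all genes at this rounding. At an unadjusted p under 0.05, 5 (13.2%) were higher in DHT samples, against 5.79% of all genes, and 1 (2.63%) was lower, against 1.55%. After centring, 2 were higher and 2 lower, together 10.5%, against 6.03% of all genes. The highest levels were those of Ndufb9, an accessory subunit of the membrane arm, which had 32.8, 32.2 and 31.2 FPKM in DHT samples, against 34.2, 32.1 and 33.7 FPKM in oil samples. Ndufs5, an accessory subunit on the intermembrane side, had 24.1, 26.3 and 26.4 FPKM in DHT samples, against 28.7, 28.6 and 25.3 FPKM in oil samples. Neither separated the groups, with log2 fold changes of -0.05 and -0.10. Ndufa4, grouped here by its name but known as a subunit of complex IV, averaged 25.0 ± 0.776 FPKM in DHT samples, against 24.0 ± 1.69 FPKM in oil samples.

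The core subunits, which hold the flavin and the iron-sulphur clusters that carry the electrons, include 6 that are described here. Ndufs1 averaged 13.8 ± 0.719 FPKM in DHT samples, against 15.0 ± 1.70 FPKM in oil samples (SD, n = 3 each). Ndufv1, which binds the flavin, averaged 11.1 ± 2.54 FPKM in DHT samples, against 12.7 ± 1.25 FPKM in oil samples. Ndufs7, Ndufs8 and Ndufv2 had log2 fold changes of 0.06, -0.08 and 0.02, and Ndufs3 one of 0.19. None of these 6 core genes had an unadjusted p under 0.05, and none separated the groups. They were picked for their role and lie outside the rule for named genes.

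The complex I genes with small p-values were accessory subunits. Ndufa10, an accessory subunit related to nucleoside kinases, had 17.01, 17.1 and 18.8 FPKM in DHT samples, against 10.4, 10.5 and 15.1 FPKM in oil samples. All DHT values lay above all oil values, and oil replicate 3 was the nearest to them. Its log2 fold change was 0.56 (SE 0.16, unadjusted p = 0.0103, adjusted p = 0.652). The last-exon sums of Ndufa10 overlapped between the groups, at 16.6, 10.5 and 17.7 FPKM in DHT samples, against 10.4, 9.99 and 14.9 FPKM in oil samples, with a log2 fold change of 0.32 and an unadjusted p of 0.235. Ndufb7, an accessory subunit facing the intermembrane space, had 10.9, 10.3 and 10.7 FPKM in DHT samples, against 8.94, 8.73 and 8.27 FPKM in oil samples. Its groups were fully apart, with a log2 fold change of 0.29 (SE 0.09, adjusted p = 0.656).

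Ndufa1, a small X-linked subunit of the membrane arm, had 13.4, 15.4 and 14.4 FPKM in DHT samples, against 11.5, 12.3 and 10.7 FPKM in oil samples. The groups did not overlap, but the assembled locus runs 69982 bases past the RefSeq bounds of Ndufa1 and takes in Nkap and Akap14. The Ndufa1 value came from first exons, with a mean of 13.0 FPKM over all libraries, against 0.216 FPKM for the last-exon sum. Ndufa8, whose NRF1 motif is shown above, averaged 19.1 ± 0.239 FPKM in DHT samples, against 16.0 ± 0.890 FPKM in oil samples. Ndufa2 averaged 7.36 ± 0.109 FPKM in DHT samples, against 6.09 ± 0.259 FPKM in oil samples, and its locus overlaps Tmco6. Both had a log2 fold change of 0.25 and no overlap between groups, and both had an unadjusted p over 0.05 once the libraries were centred.

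Ndufc2, an accessory subunit of the membrane arm, went the other way. It had 2.71, 6.40 and 6.52 FPKM in DHT samples, against 8.58, 8.82 and 9.72 FPKM in oil samples. Every DHT value was below every oil value, and DHT replicate 1 was far below the other two. The log2 fold change was -0.83 (SE 0.30, unadjusted p = 0.0294, adjusted p = 0.658), and over settings that left out libraries it lay between -1.02 and -0.45. First-exon and last-exon sums gave the same picture, with a last-exon sum of 2.47 FPKM in DHT replicate 1.

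**Figure D2:**
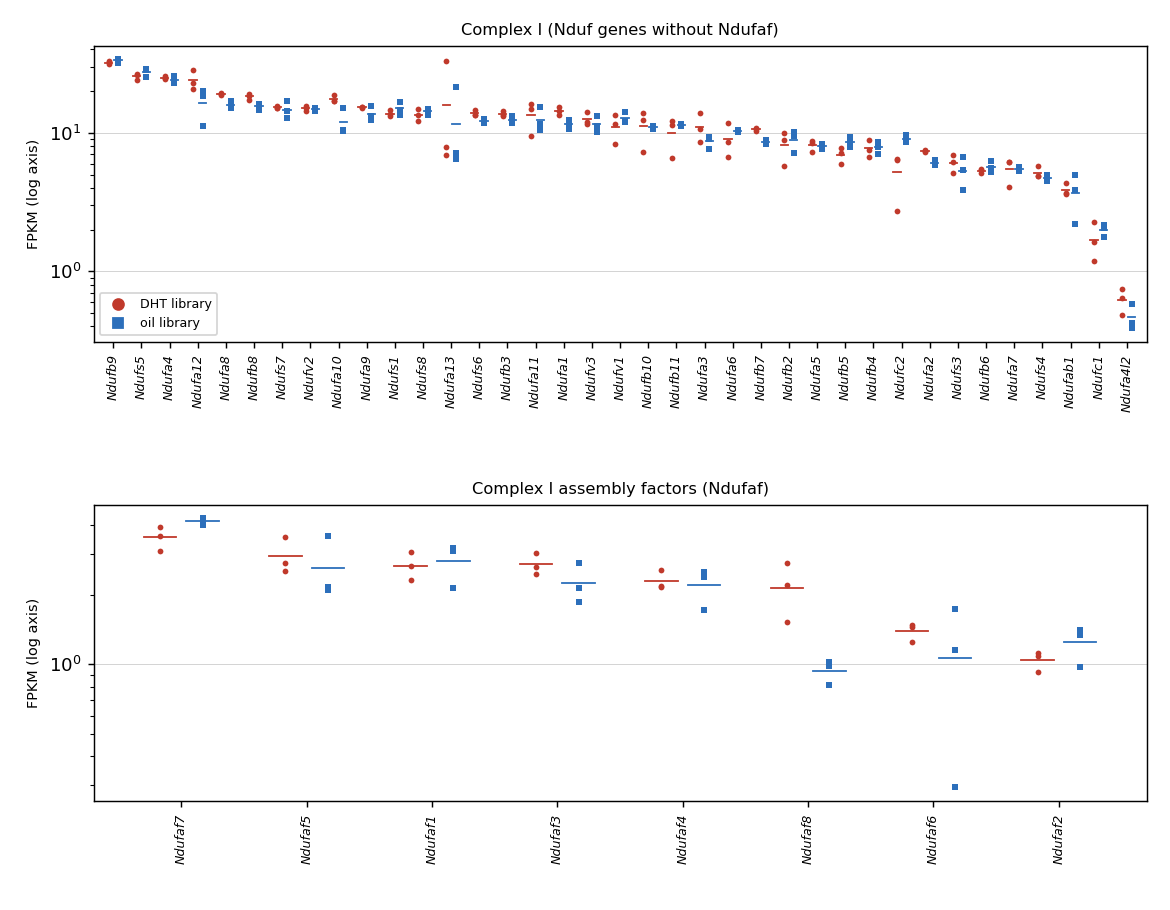
Levels in FPKM (log axis) are plotted for the complex I genes reported here and the 8 Ndufaf assembly factors, with circles for the 3 DHT samples, squares for the 3 oil samples and short lines at the group means. Most genes lie close together in all 6 libraries, and Ndufa13, Ndufc2 and Ndufaf6 show libraries far from the rest of their group.

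Among the assembly factors, Ndufaf8, known in human cells as the partner of NDUFAF5, had 2.72, 2.19 and 1.51 FPKM in DHT samples, against 0.810, 0.984 and 1.02 FPKM in oil samples. The groups did not overlap, and its log2 fold change of 0.86 (SE 0.19) was the highest of the 84 members (unadjusted p = 0.00325, adjusted p = 0.652). The gene lies at chr11:120098944-120100705 in the files (ENSMUSG00000078572), treated as GRCm38. Ndufaf5, which modifies an arginine of NDUFS7 in human cells, averaged 2.94 ± 0.546 FPKM in DHT samples, against 2.61 ± 0.832 FPKM in oil samples. Ndufaf7, a methyltransferase of complex I assembly in human cells, averaged 3.53 ± 0.413 FPKM in DHT samples, against 4.14 ± 0.150 FPKM in oil samples, without overlap but with an unadjusted p of 0.118. Of the 8 factors, 5 had a fold change above 0 (62.5%, against 63.6% of all genes) and 3 below.

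Complex II, which links the citric acid cycle to the chain, gave no member with an unadjusted p under 0.05. Sdha, the flavoprotein that oxidises succinate, had 42.8, 24.0 and 29.7 FPKM in DHT samples, against 41.9, 23.3 and 21.6 FPKM in oil samples. A single library in each group, DHT replicate 1 and oil replicate 1, stood well above the others, and the groups overlapped. Sdhb, the iron-sulphur subunit, averaged 19.7 ± 0.833 FPKM in DHT samples, against 17.7 ± 2.07 FPKM in oil samples. The membrane anchors Sdhd and Sdhc had log2 fold changes of 0.14 and -0.02.

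Complex III passes electrons from ubiquinol to cytochrome c. Uqcrc1, a core protein of the complex, had 42.9, 43.5 and 44.9 FPKM in DHT samples, against 37.4, 37.3 and 36.4 FPKM in oil samples. All DHT values exceeded all oil values, with a log2 fold change of 0.24 (SE 0.08, unadjusted p = 0.0247, adjusted p = 0.656). When the libraries were centred it was 0.18 and the unadjusted p no longer lay under 0.05. Uqcrc1 took its value from first exons, with a mean of 40.4 FPKM over all libraries, against 0.0729 FPKM for the last-exon sum. Its partner Uqcrc2 averaged 25.5 ± 1.09 FPKM in DHT samples, against 24.0 ± 1.09 FPKM in oil samples, with overlap. Uqcrh, the hinge protein, averaged 26.2 ± 1.21 FPKM in DHT samples, against 24.6 ± 0.784 FPKM in oil samples.

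Uqcr11, a small accessory subunit of the same complex, had 16.6, 16.4 and 17.5 FPKM in DHT samples, against 19.97, 19.5 and 20.5 FPKM in oil samples. All DHT values were below all oil values, with a log2 fold change of -0.24 (SE 0.09, unadjusted p = 0.0289, adjusted p = 0.658). Uqcrc1 and Uqcr11 thus differed in sign within the same complex, with equal sizes at 2 decimals. The sum of complex III was between 129 and 134 FPKM in DHT samples, against between 122 and 124 FPKM in oil samples. Uqcrfs1, the Rieske iron-sulphur protein that every active complex III holds, was listed at 0 in all 6 libraries.

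Complex IV, cytochrome c oxidase, had the highest median log2 fold change, 0.39 over 11 tested members, or 0.33 after centring. That median is the value of Cox5b, which depended on a further listed first exon and was 0.11 with last-exon sums, as given below. The next lower member, Cox7a2l, had 0.11. Of the 11 tested members, 8 were above 0 (72.7%, against 63.6% of all genes) and 3 below. At an unadjusted p under 0.05, 4 (36.4%) were higher in DHT samples, against 5.79% of all genes, and 0 were lower, against 1.55%. After centring, 2 (18.2%) were higher at that threshold, against 3.16% of all genes, and 0 were lower, against 2.87%. Cox6a1 and Cox6b1 were then no longer among them. Cox5b, a matrix-side subunit, had 10.3, 10.7 and 12.2 FPKM in DHT samples, against 7.71, 8.09 and 9.10 FPKM in oil samples. No oil sample reached the lowest DHT sample, with a log2 fold change of 0.39 (SE 0.11, unadjusted p = 0.0115, adjusted p = 0.652). Its first-exon sum includes a second listed first exon, with 0.589, 2.59 and 3.02 FPKM in DHT samples, against 0.0133, 0.00493 and 0.00912 FPKM in oil samples. The last-exon sums were 8.39, 8.15 and 9.14 FPKM in DHT samples, against 7.69, 8.09 and 7.94 FPKM in oil samples, with a log2 fold change of 0.11 and an unadjusted p of 0.257. Its companion Cox5a had 8.43, 22.1 and 22.6 FPKM in DHT samples, against 22.7, 21.6 and 21.5 FPKM in oil samples. Only DHT replicate 1 was low there, and the log2 fold change was -0.42 with it and 0.03 without it.

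Several complex IV subunits exist as a form found in most tissues and a form known from heart and skeletal muscle. Cox6a1, the general form, had 41.0, 67.7 and 69.3 FPKM in DHT samples, against 30.8, 29.0 and 50.2 FPKM in oil samples. The groups overlapped, because oil replicate 3 was above DHT replicate 1, and the log2 fold change was 0.69 (SE 0.28, unadjusted p = 0.0422, adjusted p = 0.658). The Cox6a1 value came from last exons, with a mean of 48.0 FPKM over all libraries, against 0 FPKM for the first-exon sum. Cox6a2, the muscle form, had 2.40, 2.69 and 2.43 FPKM in DHT samples, against 1.79, 1.90 and 1.55 FPKM in oil samples. The groups did not overlap, with a log2 fold change of 0.42 (SE 0.12, unadjusted p = 0.00979, adjusted p = 0.652). The Cox6a2 locus overlaps Itgad, and reads of the pair cannot be told apart without strand.

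The general Cox7a2 had 34.1, 31.2 and 21.7 FPKM in DHT samples, against 5.64, 26.6 and 28.4 FPKM in oil samples. Oil replicate 1 alone was low, and the log2 fold change ranged from 0.05 to 1.17 over settings that left out libraries. The muscle form Cox7a1 had 2.83, 2.82 and 2.76 FPKM in DHT samples, against 2.92, 3.08 and 2.65 FPKM in oil samples, with overlap. Its assembled locus runs 14296 bases past the RefSeq bounds of Cox7a1. The first exon that gave most of the value (mean 2.51 FPKM over all libraries) lies outside those bounds. The last-exon sum averaged only 0.377 FPKM, so the level of Cox7a1 itself is uncertain. Cox6b1, which joins the monomers of the enzyme, had 38.3, 54.4 and 37.5 FPKM in DHT samples, against 32.3, 32.2 and 32.1 FPKM in oil samples. The oil values were almost equal and all lay below the DHT values (log2 fold change 0.40, SE 0.15, unadjusted p = 0.0354, adjusted p = 0.658), while the assembled locus takes in Upk1a. The Cox6b1 value came from first exons, with a mean of 37.8 FPKM over all libraries, against 0.0722 FPKM for the last-exon sum.

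The forms known from lung and from testis stayed under 0.5 FPKM in every library. Cox4i2, a form induced by low oxygen in lung, had 0.0866, 0.390 and 0.366 FPKM in DHT samples, against 0.202, 0.492 and 0 FPKM in oil samples. Cox6b2 averaged 0.122 ± 0.0889 FPKM in DHT samples, against 0.149 ± 0.0754 FPKM in oil samples. Cox7b2, known from testis, had 0, 0 and 0.201 FPKM in DHT samples, against 0, 0.285 and 0.161 FPKM in oil samples. Cox8b, known from muscle, and Cox8c, known from testis, were listed at 0 in all 6 libraries. The most abundant complex IV genes did not separate the groups: Cox6c averaged 64.3 ± 3.52 FPKM in DHT samples, against 67.6 ± 1.74 FPKM in oil samples, and Cox7c averaged 53.1 ± 7.96 FPKM in DHT samples, against 51.4 ± 0.750 FPKM in oil samples.

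**Figure D3:**
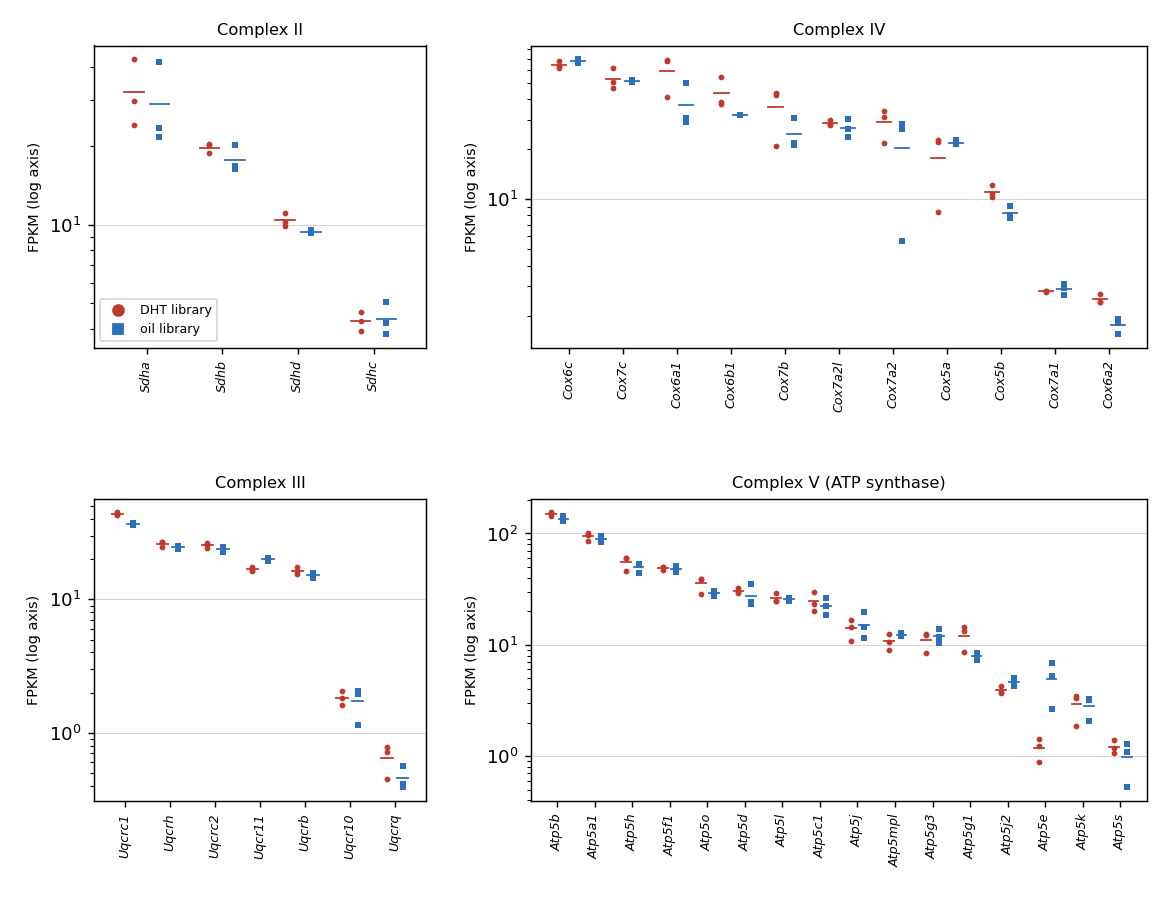
Levels in FPKM (log axis) are plotted for the tested genes of complexes II, III, IV and V, with circles for the 3 DHT samples, squares for the 3 oil samples and short lines at the group means. Atp5e in complex V has all DHT values (0.884 to 1.43) below all oil values (2.65 to 6.89), and Cox7a2 and Cox5a each have a single low library.

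Complex V held the member with the smallest p of all. Atp5e, the epsilon subunit of the rotating central stalk (ENSMUSG00000016252, chr2:174461072-174464105), had 1.24, 1.43 and 0.884 FPKM in DHT samples, against 5.28, 2.65 and 6.89 FPKM in oil samples. Every DHT library was below every oil library, and oil replicate 2 was the nearest to the DHT values. The log2 fold change was -1.62 (SE 0.32, unadjusted p = 0.00145), and the adjusted p over all genes was 0.652. The first-exon and last-exon sums of Atp5e were equal in each library. The unadjusted p of Atp5e and of Ndufaf8 lay under 0.05 in all 15 other settings tried.

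The other stalk subunits did not separate the groups. Atp5c1, the gamma subunit, averaged 24.5 ± 4.94 FPKM in DHT samples, against 22.5 ± 3.94 FPKM in oil samples, and Atp5d, the delta subunit, averaged 30.3 ± 1.66 FPKM in DHT samples, against 27.5 ± 6.52 FPKM in oil samples. Atp5o, which joins the catalytic head to the outer stalk, had 28.4, 39.2 and 39.4 FPKM in DHT samples, against 30.1, 30.4 and 27.4 FPKM in oil samples. Its groups overlapped, and its assembled locus spreads 244066 bases past the RefSeq bounds over Donson, Cryzl1 and Itsn1.

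The c subunit of the proton-carrying ring has several genes that yield the same mature protein. Atp5g1 had 14.3, 13.2 and 8.60 FPKM in DHT samples, against 7.85, 7.36 and 8.43 FPKM in oil samples. The groups did not overlap, though DHT replicate 3 was close to the oil values, and the log2 fold change was 0.55 (SE 0.19, unadjusted p = 0.0247, adjusted p = 0.656). Atp5g3 had 12.5, 12.2 and 8.44 FPKM in DHT samples, against 13.7, 11.7 and 10.5 FPKM in oil samples, with overlap and a log2 fold change of -0.12. DHT replicate 3 was the lowest DHT library in both. Atp5j2, a small membrane subunit, was lower in every DHT library, at 3.93 ± 0.305 FPKM in DHT samples, against 4.61 ± 0.355 FPKM in oil samples, with an unadjusted p of 0.106.

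**Figure D4:**
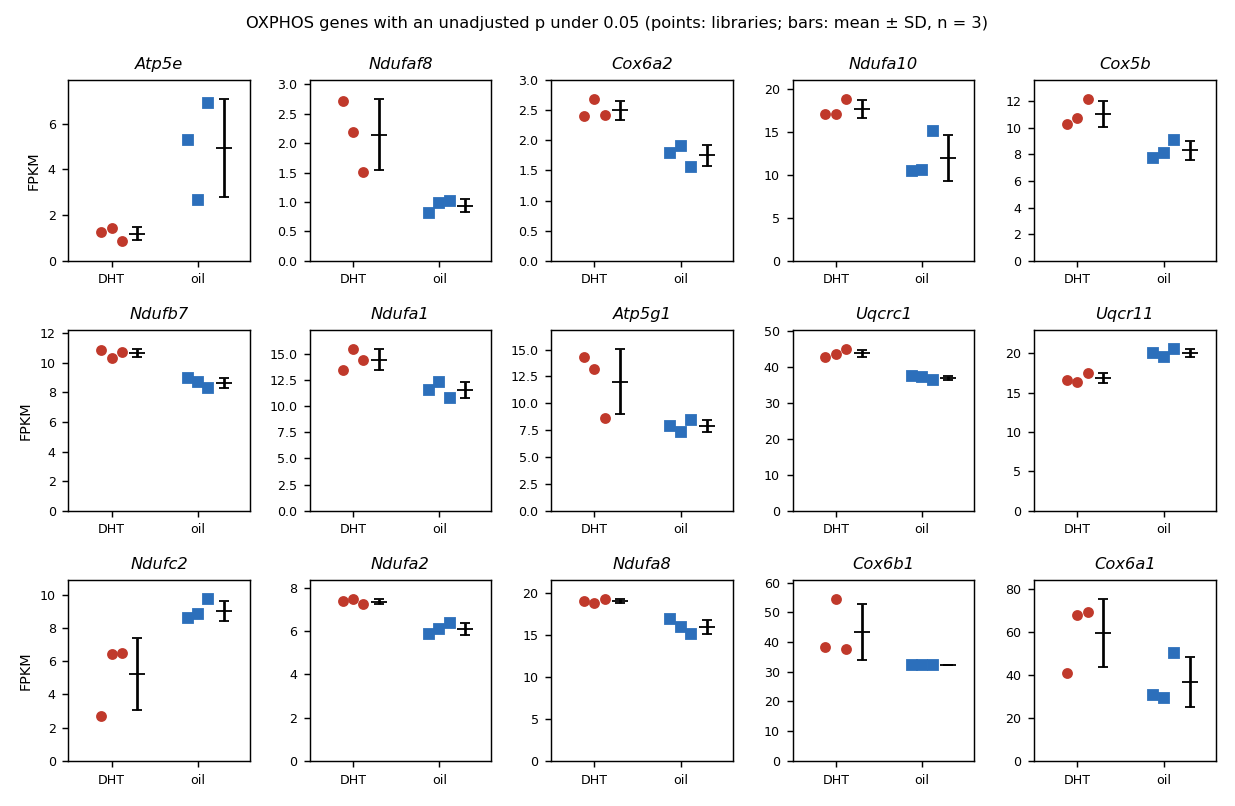
FPKM (linear axes starting at 0) is plotted in each library for the 15 members with an unadjusted limma p under 0.05, ordered by p, with circles for DHT samples on the left, squares for oil samples on the right and bars for mean ± SD (n = 3). Atp5e, Uqcr11 and Ndufc2 are lower in DHT samples, the other 12 are higher, and only Cox6a1 has overlapping groups.

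Compared with all genes, OXPHOS values were repeatable. The members also had a higher median level (12.5 FPKM, against 3.77 FPKM for all genes tested), and no comparison at matched level was made. In 9 of 84 tested members (10.7%) the highest and lowest libraries of a group differed by 2-fold or more, against 19.99% of all genes tested. The widest were Ndufaf6, with 0.294 FPKM in oil replicate 2 and a ratio of 5.90 in the oil group, and Cox7a2, with a ratio of 5.03. Ndufa13, a supernumerary subunit also known as GRIM-19, had 7.84, 6.95 and 33.2 FPKM in DHT samples, against 21.4, 7.16 and 6.50 FPKM in oil samples. These are first-exon values, with a mean of 13.8 FPKM over all libraries, against 0.469 FPKM for the last-exon sum. The locus runs 6375 bases past the RefSeq bounds and overlaps Yjefn3 and Tssk6. DHT replicate 3 and oil replicate 1 were high, the same libraries in which the choroid plexus markers summed highest, at 31.0 and 79.9 FPKM. Most of each sum was the single marker Ttr, at 29.2 and 76.4 FPKM. Whether the high Ndufa13 values and these sums are connected was not tested.

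First-exon and last-exon sums differed by over 2-fold in 19 members (22.6%), against 38.5% of all genes, with the first-exon sum larger in 12 and the last-exon sum larger in 7. Cox7b, an X-linked complex IV subunit, shows how the assembled start exon can move with the gene value. Its most upstream first exon had 40.4, 4.62 and 0 FPKM in DHT samples, against 0, 29.5 and 0 FPKM in oil samples. A middle first exon had 35.4 FPKM in DHT replicate 2 and 0 in the other 5 libraries. The most downstream first exon had 3.42, 2.36 and 21.0 FPKM in DHT samples, against 21.6, 1.36 and 21.2 FPKM in oil samples.

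The gene value of Cox7b was 43.9, 42.4 and 21.1 FPKM in DHT samples, against 21.7, 31.0 and 21.3 FPKM in oil samples. The libraries with an upstream exon had the higher values in both groups. Atp5d showed a similar exchange, with last-exon sums between 23.4 and 35.0 FPKM over all libraries: its most upstream first exon had 0.541, 28.7 and 22.7 FPKM in DHT samples, against 0.648, 23.9 and 23.1 FPKM in oil samples, while an internal start had 19.2, 0.0193 and 0 FPKM in DHT samples, against 28.8, 0 and 0.000465 FPKM in oil samples. The internal start carried a value mainly in DHT replicate 1 and oil replicate 1, where the upstream exon was low.

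**Figure D5:**
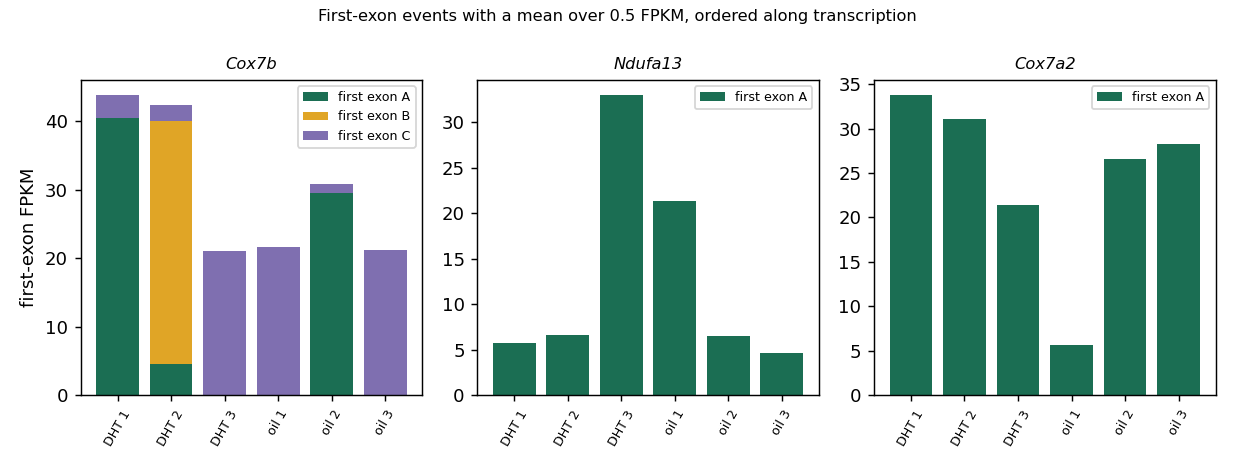
First-exon FPKM is stacked by library, 3 DHT samples and then 3 oil samples, for Cox7b, Ndufa13 and Cox7a2, with events of a mean over 0.5 FPKM lettered along the direction of transcription. Cox7b reaches 31.0 FPKM or more where exon A or B is present and about 21 FPKM where exon C stands alone, Ndufa13 is high in DHT replicate 3 and oil replicate 1, and Cox7a2 is low in oil replicate 1.

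An exact 0 in these files can be a failed estimate. Members listed at 0 numbered 5, 4 and 4 in DHT samples, against 5, 4 and 5 in oil samples, and none of the 84 tested members was at 0 in any library, against between 0.396% and 0.545% of all tested genes. Besides Uqcrfs1, Cox8b and Cox8c, zeros fell on Cox7b2, Cox4i2 and an additional Atp5o identifier inside Itsn1 (ENSMUSG00000116933), which had 0.416 FPKM in DHT replicate 2 and 0 in the other 5 libraries. The 0 of Uqcrfs1 is the only one on a subunit that all cells with mitochondria use.

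Splicing events of OXPHOS genes are given as shares of inclusion. Skipped-exon events with a total of at least 1 FPKM in each library numbered 52, in 35 genes, and in 11 of them the exon's share was between 10% and 90% in some library. In Atp5j, which encodes coupling factor F6, an exon at chr16:84833820-84833874 was included at 1.25% ± 0.404 in DHT samples, against 30.9% ± 33.7 in oil samples (SD, n = 3 each). The oil samples ranged widely and overlapped with the DHT samples. In Cox7a2l, grouped here with complex IV, an exon at chr17:83503931-83503999 was included at 21.3% ± 18.5 in DHT samples, against 26.9% ± 5.63 in oil samples, with 0 in DHT replicate 3 alone. Retained-intron events numbered 17, in 13 genes, and 4 lay between 10% and 90%, in Ndufaf7 and in the part of the Atp5o locus outside its RefSeq bounds.

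Circular RNAs (circRNAs), closed rings from back-splicing, were scarce in OXPHOS genes. Of 11895 circRNAs listed, 15 came from 8 member hosts, and they took 138 of 286240 back-splice junction reads (0.0482%). Among tested genes, 8 of 84 members (9.52%) hosted a listed circRNA, against 29.2% of all tested genes. With 3 of the 15 having at least 20 reads, 0 of them had an adjusted p under 0.05 by edgeR's quasi-likelihood test, and 0 had an unadjusted p under 0.05. Over all 2524 circRNAs tested, 0 (0%) had an adjusted p under 0.05 and 79 (3.13%) had an unadjusted p under 0.05, and DESeq2 likewise gave no member circRNA an adjusted p under 0.05.

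The Atp5c1 circle at chr2:10058996-10064311 had 9, 5 and 0 listed junction reads in DHT samples, against 10, 10 and 13 in oil samples. Every DHT count was below every oil count, with a log2 fold change of -1.37 (unadjusted p = 0.0835, adjusted p = 0.996). Lists start at 2 reads, so a 0 can hide 1 read. The Ndufv2 circle at chr17:66087403-66089493 had 6, 8 and 0 reads in DHT samples, against 4, 7 and 0 in oil samples, and the Atp5o circle at chr16:91926459-91926982 had 0, 4 and 8 reads in DHT samples, against 4, 2 and 3 in oil samples. Both overlapped between the groups. The linear Atp5c1 level overlapped between the groups, with a log2 fold change of 0.11.

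Genes that work beside the complexes were taken from lists. Of 8 tested carriers and subunits with other names, 1 (12.5%) had an unadjusted p under 0.05, against 7.34% of all genes. It was Higd2a, a small assembly protein of the inner membrane, which was higher. Higd2a had 20.5 ± 0.707 FPKM in DHT samples, against 17.1 ± 0.138 FPKM in oil samples (SD, n = 3 each). Of 31 tested assembly factors with other names, 0 had an unadjusted p under 0.05 in either direction, against the same 7.34%. The smallest p among them was that of Ttc19, a complex III factor, with 4.51, 11.9 and 7.12 FPKM in DHT samples, against 10.4, 11.3 and 12.6 FPKM in oil samples. Next was Coa7, a complex IV assembly factor, with 1.31 ± 0.140 FPKM in DHT samples, against 1.58 ± 0.0857 FPKM in oil samples.

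Of 15 tested regulators of mitochondrial biogenesis, 2 (13.3%) had an unadjusted p under 0.05, against 7.34% of all genes. Both were higher in DHT samples. Ppargc1a, which encodes the coactivator PGC-1α, had 8.29, 7.58 and 7.37 FPKM in DHT samples, against 3.63, 6.57 and 3.86 FPKM in oil samples. Every DHT sample was above every oil sample, with a log2 fold change of 0.71 (SE 0.21, unadjusted p = 0.0126, adjusted p = 0.652). Polrmt, the mitochondrial RNA polymerase, averaged 3.21 ± 0.319 FPKM in DHT samples, against 2.41 ± 0.138 FPKM in oil samples. The factors whose motifs were searched, Nrf1, Gabpa and Yy1, had log2 fold changes of 0.24, 0.01 and 0.08, all with an unadjusted p over 0.05, and were named for their motifs.

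Of 17 tested genes of the citric acid cycle and pyruvate dehydrogenase, 14 (82.4%) had a fold change above 0, against 63.6% of all genes. An unadjusted p under 0.05 was found in 2 (11.8%), against 7.34% of all genes. Ogdh, a subunit of the oxoglutarate dehydrogenase, averaged 25.8 ± 1.97 FPKM in DHT samples, against 20.7 ± 1.75 FPKM in oil samples. Idh2, the mitochondrial NADP-linked isocitrate dehydrogenase, averaged 6.45 ± 0.649 FPKM in DHT samples, against 4.65 ± 1.23 FPKM in oil samples. No gene of these lists had an adjusted p under 0.05, and after centring no citric acid cycle gene had an unadjusted p under 0.05.

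The pattern was compared with that of other abundant families. Of 62 tested cytosolic ribosomal protein genes, 9 were higher and 2 lower at an unadjusted p under 0.05 (17.7%, against 7.34% of all genes). Their median log2 fold change was 0.10. The share of 17.7% was close to the 17.9% of the OXPHOS members. After centring, the share was 8.06% for ribosomal protein genes and 13.1% for OXPHOS members, against 6.03% of all genes. Of 33 tested proteasome genes, 1 was higher and 0 lower (3.03%, against 7.34% of all genes), with a median of 0.07. The differences between families were not tested.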

How the data were processed

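FPKM values of splicing, first-exon and last-exon events, not of genes, were deposited by the authors, per the file headers, and back-splice junction read counts were deposited per circRNA from 2 reads up. A deposited score per circRNA, normalized to mapped reads per the labels' protocols, was used only to derive mapped reads. HISAT2 2.0.1, BWA, cutadapt and bcl2fastq 2.17.1.14 are named, with no role, in the submitters' processing notes. Neither the assembler nor the circRNA caller is stated there. The notes name mm9, but 99.7% of 25929 gene identifiers overlapped the GRCm38.p6 bounds of the same symbol, so coordinates are treated as GRCm38. Strand use is not stated, so overlapping genes and near-identical copies are uncertain.

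The larger of the first-exon and last-exon sums of a locus was added over loci of an identifier. limma 3.58.1 (trend, R 4.3.3) was run on log2(FPKM + 0.5) for genes averaging 0.5 FPKM or more, a scale that understates folds at low levels. For circRNAs of 20 or more junction reads the test was edgeR 4.0.16 (quasi-likelihood, TMM, all junction reads as library size) and, as an alternative, DESeq2 1.42.0. Adjusted p is Benjamini-Hochberg's over all features, with a threshold of 0.05. Junction reads per library numbered 43512 to 55325, and depth behind FPKM of single genes is unknown. Scripts used Python 3.11.15 with pandas 2.3.3, numpy 2.4.6 and matplotlib 3.10.9 and were tested on simulated data. There, an adjusted p under 0.05 was reached by 12 of 67 genes changed 1.5-fold, 44 of 67 changed 2-fold and 52 of 66 changed 3-fold. For circRNAs these counts were 0 of 67, 0 of 67 and 5 of 66, so small changes would mostly be missed.

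Members and lists were chosen with earlier results of these data known. Named members were, in each complex, the 2 highest and the smallest p in each direction, every member with an unadjusted p under 0.05, tissue isoform pairs and Atp5e; from each list, the 2 with the smallest p; and circRNAs with at least 20 reads. Others were chosen after their values were seen, for their role, spread, start exons or splicing. Groups follow the treatment labels, and replicate numbers are names only. A complex I gene is included in the counts and tests but is not reported here by name.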

Additional observations from a re-analysis of the deposited data

How the results depend on the processing

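No member had an adjusted p under 0.05 in any of the 15 other settings (pseudocount 0.1 or 1, no filter or a mean of at least 1 FPKM, first-exon sums, last-exon sums, the fullest event, centred libraries, each library left out, and DHT replicate 2 and oil replicate 3 left out together, which was added after seeing the data). Over the 34 named genes and circRNAs, 467 of 478 values kept their sign and 11 changed it, with adjusted p between 0.139 and 1.0. The count of all genes with an adjusted p under 0.05, 2 in the report, was 1 with a pseudocount of 0.1 or a mean of at least 1 FPKM, 0 with first-exon sums, last-exon sums or the fullest event, and between 0 and 4 when libraries were left out (1 without DHT replicate 2 and oil replicate 3). The 12 members higher at an unadjusted p under 0.05 became 7 with last-exon sums and 6 after centring. They were between 4 and 10 when libraries were left out. The 3 lower became 5 after centring and between 1 and 4 when libraries were left out. In both directions, last-exon sums gave 10 of 72 tested members (13.9%, with 7.69% of all genes). Centring gave 11 of 84 (13.1%, with 6.03%). When libraries were left out, the member share lay between 5.95% and 15.5%, and that of all genes between 5.80% and 7.44%. Members listed at 0 in some library, 6 in the report, were 11 with first-exon sums and 15 with last-exon sums. The log2 fold change of Cox7c was -0.027 after centring. When libraries were left out, the log2 fold change changed sign in 6 genes or circRNAs, ranging from -0.049 to 0.471 for Sdha, -0.099 to 0.138 for Sdhc, -0.082 to 0.121 for Cox7c, -0.658 to 0.029 for Cox5a, -0.087 to 0.0075 for Cox7a1 and -0.333 to 0.781 for the Ndufv2 circle. The cause was not tested. No paired analysis was possible because the labels give the groups no shared replicate numbers, and the numbers 1 to 3 used here only name libraries in accession order.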
